A study of Mus musculus with 10 samples.

Results

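Among the regions whose chromatin accessibility differed between atrial cardiomyocytes of control and R1A-deleted mice, 518 of 5327 (9.72%) lay at the ends of protein-coding genes, and these are described here. A region was counted when the 500 bp bin that stands for it was within 1 kb of either end of a protein-coding gene body in the RefSeq table of GRCm38.p6, which has the coordinates of mm10. The rule used position alone and no measured value, but the table it was applied to holds only regions that the authors had already called. The 518 regions touched 514 genes. The series asks how a noncoding stretch that regulates Prrx1, which encodes a homeobox transcription factor, bears on atrial rhythm. The controls were 4 mice labelled as control, with 6 libraries because animals 1 and 3 had a repeat library each. Their group signal is headed WT, and no further genotype is given for them. The other group was 4 mice labelled Prrx1(R1A)-/-, with 1 library each, called R1A-deleted here. All 8 animals were 8 to 12 weeks old, and left and right atria were pooled within each animal. The sources used here do not give the bounds of the allele, the strain or the sex, so whether the allele removes anything besides the noncoding region cannot be read from the data. Nuclei had been sorted for PCM1, a protein on the nuclear envelope of cardiomyocytes, with a gate that left out debris, clumps and other nuclei.

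The start of a gene is where RNA polymerase is recruited, and its promoter is usually held open by bound transcription factors, so it gives strong signal in ATAC-seq, in which a transposase cuts and tags accessible DNA. Many promoters of genes used in all tissues are rich in the dinucleotide CpG and stay open widely, whereas promoters of tissue-restricted genes are more often poor in CpG and carry motifs for tissue factors. In heart muscle, serum response factor binds the CArG box of actin and other contractile genes. Enhancers, which carry much of the difference between cell types, lie mostly away from gene ends.

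To show what the start regions look like as sequence, 6 promoters are given, each as the 250 bases before a RefSeq start (GRCm38.p6), 5′ to 3′ on the strand of the gene. For a strongly open start with more reads in R1A-deleted animals on the authors' scale and another with fewer, the capitals mark CpG. The gain, at Osbp, turned to a fold of -0.18 with TMM. Osbp, which encodes an oxysterol binding protein, is shown from chr19:11965594-11965843 (+) and held 23 CpG. Actc1, the gene of cardiac actin, is shown from chr2:114052876-114053125 (-) and held 4.
Osbp: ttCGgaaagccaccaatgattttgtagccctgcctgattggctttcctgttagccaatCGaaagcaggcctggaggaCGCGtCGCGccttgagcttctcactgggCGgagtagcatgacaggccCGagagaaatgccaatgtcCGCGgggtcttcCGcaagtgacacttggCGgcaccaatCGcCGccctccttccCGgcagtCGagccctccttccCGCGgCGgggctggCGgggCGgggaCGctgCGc
Actc1: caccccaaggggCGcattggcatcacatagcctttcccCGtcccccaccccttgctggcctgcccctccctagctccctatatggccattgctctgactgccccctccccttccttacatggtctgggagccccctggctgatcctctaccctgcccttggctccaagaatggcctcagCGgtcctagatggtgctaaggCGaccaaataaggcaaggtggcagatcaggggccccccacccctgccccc
Ciart, a repressor in the circadian clock, and Hspa1b, the gene of an inducible HSP70 chaperone, are shown for motifs of factors that control such genes. In Ciart (chr3:95882229-95882478, -) the capitals mark 3 copies of CACGTG, the E-box of the clock factors. In Hspa1b (chr17:34959239-34959488, -) they mark GAANNTTC, the core of the heat shock element.
Ciart: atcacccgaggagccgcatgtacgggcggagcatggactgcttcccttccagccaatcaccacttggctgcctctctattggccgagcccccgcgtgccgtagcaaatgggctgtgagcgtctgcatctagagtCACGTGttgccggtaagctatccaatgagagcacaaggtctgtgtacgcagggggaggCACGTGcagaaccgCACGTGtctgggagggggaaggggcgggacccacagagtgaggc
Hspa1b: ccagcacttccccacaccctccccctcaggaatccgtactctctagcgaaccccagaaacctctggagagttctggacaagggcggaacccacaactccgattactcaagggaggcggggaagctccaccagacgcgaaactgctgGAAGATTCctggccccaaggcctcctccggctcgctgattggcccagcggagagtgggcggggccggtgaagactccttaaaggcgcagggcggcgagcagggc
Myl9, which encodes a regulatory myosin light chain of smooth and nonmuscle cells, and Fhl2, which encodes a LIM protein of the heart sarcomere, are shown because they had a lower start region and a CArG box in the promoter, here in capitals. The box lies inside the lower bin at Myl9 but outside it at Fhl2, whose bin is farther upstream. They lie at chr2:156775214-156775463 (+) and chr1:43196762-43197011 (-).
Myl9: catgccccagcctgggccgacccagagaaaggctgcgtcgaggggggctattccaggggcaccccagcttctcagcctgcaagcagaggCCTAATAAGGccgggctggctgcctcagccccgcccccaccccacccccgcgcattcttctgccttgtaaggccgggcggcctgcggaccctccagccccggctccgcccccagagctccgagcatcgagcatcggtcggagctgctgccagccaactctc
Fhl2: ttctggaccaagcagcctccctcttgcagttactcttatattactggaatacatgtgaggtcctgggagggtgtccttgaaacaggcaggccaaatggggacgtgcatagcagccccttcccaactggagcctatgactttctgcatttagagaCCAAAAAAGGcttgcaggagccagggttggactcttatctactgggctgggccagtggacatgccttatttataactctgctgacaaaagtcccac

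By the authors' deposited calls, 383 of the 518 regions (73.9%) had more reads in R1A-deleted animals and 135 (26.1%) had fewer, against 66.7% higher and 33.3% lower over all 5327. Because each listed region is a call, edgeR on the authors' scale, which takes the difference in scale between groups from the authors' own fold changes, gave the same 383 and 135, and over all regions the same 66.7% and 33.3%. With TMM, a scaling that assumes most regions do not change, edgeR called 65 of the 383 gains higher and all 135 losses lower. The 65 were 16.97% of the gains at gene ends, against 27.8% of all listed gains and 29.1% of those away from gene ends. As a share of regions, 12.5% at gene ends and 18.5% of all listed were called higher, and 26.1% and 33.3% lower. TMM gave folds lower by a median of 0.60 in log2, and with it 50 of the 383 higher regions had a fold below 0. The direction of small gains therefore rests on the scale. A downward shift makes losses larger, so TMM could not turn them and is no check on their direction. Levels below are scaled reads per bin on the authors' scale, and folds are log2, R1A-deleted over control. A library had between 151976 and 521778 reads in the listed bins, and its full depth is unknown.

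Replicates were set apart at most of these regions. All 4 R1A-deleted animals lay above all 4 controls at 347 of the 383 higher regions, and below them at 114 of the 135 lower ones. These were 90.6% of the gains and 84.4% of the losses at gene ends, against 90.6% of all listed gains and 88.8% of all listed losses. Of all listed regions, higher or lower, 60.4% lay above and 29.6% below in this way. Listed regions had been chosen for such a difference, and those at gene ends did not stand out in it. The median higher region had 60.2, 54.1, 52.7 and 54.1 scaled reads in controls 1 to 4 and 102, 102, 111 and 102 in R1A-deleted animals 1 to 4. The median lower region had 67.6, 72.9, 69.0 and 66.7 in the controls and 35.9, 36.8, 38.8 and 36.7 in the R1A-deleted animals. The bins at gene ends held 12.7%, 12.3%, 12.1% and 12.7% of the listed reads of the controls and 12.8%, 12.6%, 13.6% and 12.9% of those of the R1A-deleted animals. These shares overlapped between the groups.

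Regions at gene ends were more open in controls than the other listed regions, and their changes were smaller. Their deposited control signal, the geometric mean of the raw counts of the 6 control libraries, had a median of 48.7 (quartiles 30.8 and 90.6), against 39.4 (24.3 and 62.4) for the 4809 other regions. The gap came with the gains. Higher regions had a median of 46.9 at gene ends and 30.8 elsewhere, and lower regions 55.6 and 52.7. Of the 400 listed regions with the highest control signal, 72 were at gene ends. The median size of the deposited log2 fold change was 0.74 at gene ends and 0.81 elsewhere, being 0.73 and 0.82 for gains and 0.75 and 0.80 for losses. A region with more reads passes the same test with a smaller fold, so sizes were also set side by side within quintiles of control signal. From the lowest to the highest quintile the median size was 0.90, 0.80, 0.77, 0.69 and 0.62 at gene ends and 0.92, 0.85, 0.80, 0.77 and 0.67 elsewhere. With gains and losses pooled, it was lower at gene ends in each of the 5. Losses alone were slightly larger at gene ends in the second quintile (0.88 against 0.87) and smaller in each quintile above it. Gene ends made up 6.75% of the lowest quintile and 15.6% of the highest.

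**Figure D1:**
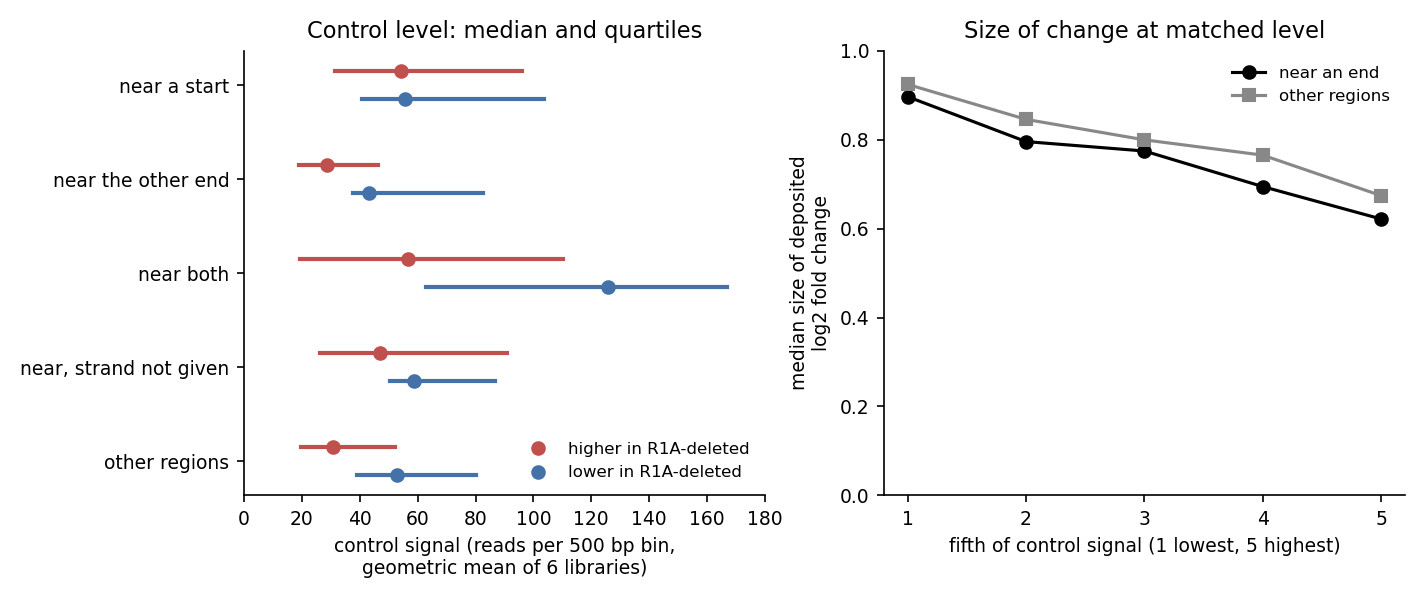
Control signal (left; reads per 500 bp bin; points are medians and lines run between the quartiles over regions) for regions near a start, near the other end, near both, near an end of a gene whose strand is not given, and all other listed regions, and median size of the deposited log2 fold change by quintile of control signal (right). Higher regions near a start had a median of 54.2 against 30.8 for higher regions away from gene ends, and the line for gene ends stays below that for the other regions in all 5 quintiles.

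The split between gains and losses also differed with level. In the lowest quintile of control signal 100% of the regions at gene ends and 99.7% of the others were higher. In the middle quintile the shares were 52.9% and 52.8%. In the highest quintile 68.7% of the regions at gene ends were higher, against 48.6% of the others, and in the quintile next to it 72.5% against 49.5%. With TMM edgeR called higher 7.89% of the gains at gene ends in the highest quintile and 9.61% of the other gains there. In the quintile next to it TMM called 8.11% of the gains at gene ends and 25.8% of the others. Most gains at gene ends in both quintiles are thus calls on the authors' scale only. The values are descriptions over regions, which share the same 8 animals, and no test was run over them.

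Gene starts and the other ends, where transcription terminates, differed in level and split. Where the reference gave the strand of each gene near the region, 260 regions were near a start, 125 near the other end and 19 near both. Of the start regions 205 (78.8%) were higher and 55 lower, with a median control signal of 54.5 and a median size of change of 0.71. Of the regions at the other end 80 (64.0%) were higher and 45 lower, with a signal of 37.5 and a size of 0.82, both close to those of regions away from gene ends. The 114 regions near any gene without a given strand, whether or not another gene there had one, held 87 higher and 27 lower. TMM called 24 of the 205 start gains (11.7%) and 22 of the 80 gains at the other end (27.5%), against 27.8% of all listed gains.

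Gains and losses differed in where they lay along the gene. When pairs of a region and a RefSeq start were laid out along the gene, the bin held the start itself in 93 pairs, 84 of them higher and 9 lower. A bin near the starts of different genes counts in each of its pairs. On the upstream side were 70 higher and 20 lower, and on the downstream side, inside the gene, 55 higher and 34 lower. At the other ends, 15 pairs whose bin held the end were higher and 13 lower. Just inside the gene 38 pairs were higher and 22 lower, and beyond it 46 were higher and 20 lower. Bins that covered an end of either kind were the most open, with a median control signal of 68.2 and a size of change of 0.70, against 46.0 and 0.76 for bins beside an end. TMM called 13 of the 119 gains whose bin covered an end (10.9%), against 27.8% of all listed gains. The excess of gains there is thus mostly one of calls on the authors' scale only.

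**Figure D2:**
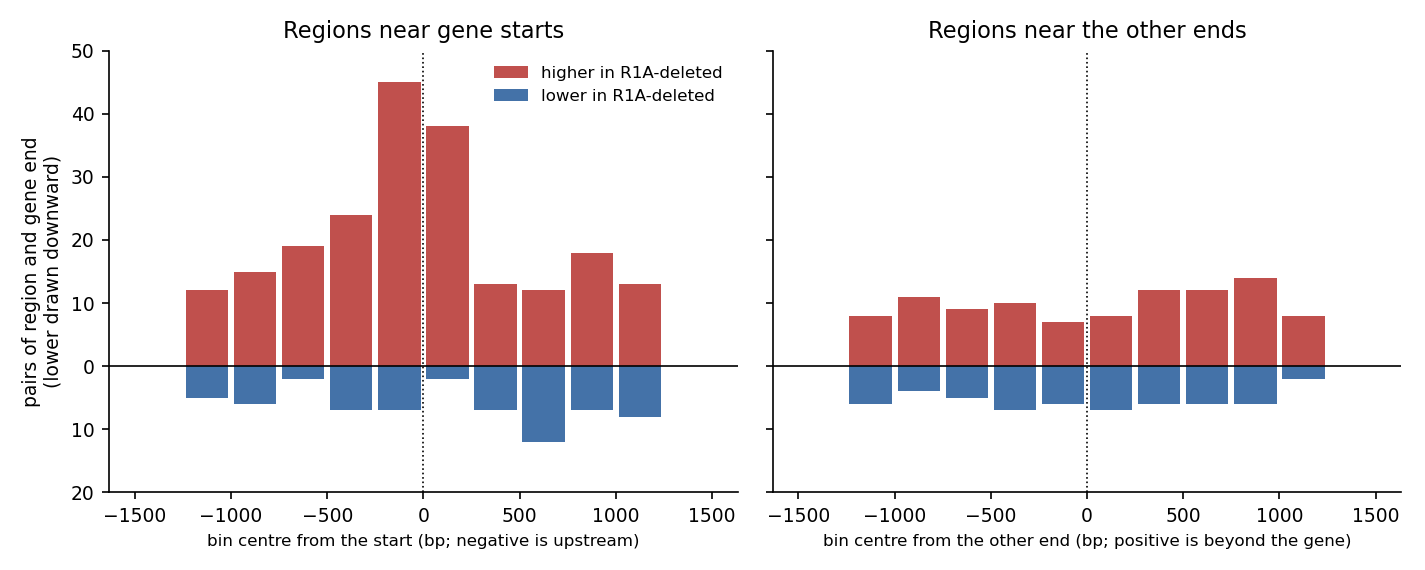
Number of pairs of a region and a gene end by the distance of the bin centre from the end (bp, in steps of 250), for starts (left) and other ends (right); higher regions are drawn upward and lower regions downward. Higher pairs crowd around the start, and in 84 of them the bin holds it. The 15 higher and 13 lower pairs whose bin holds the other end do not stand above their surroundings. Most gains near a start were not called with TMM.

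The promoters behind the higher start regions were richer in CpG than those behind the lower ones. RefSeq promoters with a start within 1 kb of the bin were found for 201 genes with a higher region and 60 with a lower region, and were set beside all 21263 protein-coding promoters of the table. The ratio of observed to expected CpG in the 250 bases before the start had a median of 0.68 for higher, 0.58 for lower and 0.53 for all promoters. A ratio of 0.6 or more was found in 63.2%, 45% and 44.7% of them. The median GC content was 62.0%, 58.8% and 55.6%. Where the bin held the start, the median ratio was 0.73 for 84 higher and 0.54 for 9 lower genes. The Osbp promoter printed above had a ratio of 0.898 and that of Actc1 0.173, which are far above and far below the medians of their groups, and the Osbp gain turned with TMM. TMM called 24 of the 205 start gains (11.7%), so most promoters of higher regions stand here by calls on the authors' scale only.

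Motifs were searched as letters on both strands of the same 250 bases. GGGCGG, the GC box of SP and KLF factors, which itself holds a CpG, was present in 61.7% of the promoters of higher regions, 41.7% of those of lower regions and 42.6% of all. The E-box CACGTG, which holds a CpG too, was present in 8.96%, 5.0% and 6.63%, and the Ciart promoter had 3. AGAACA, a site of the glucocorticoid receptor, was present in 10.9%, 6.67% and 13.7%. TAATTA, a core bound by homeodomain proteins, was present in 1.49%, 3.33% and 4.31%. CCAAT was present in 41.3%, 46.7% and 35.4%, and the TATA box TATAAA in 6.97%, 11.7% and 11.6%. These matches are descriptions of letters and do not show binding.

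The CArG box was first searched in a pair of fixed spellings, and each was present in 0 of the 60 promoters of lower regions and 0 of the 201 of higher regions. The following motifs were chosen after the values had been seen. The CArG box with any A or T inside was present in 6 of the 60 promoters of lower regions (10%), 3 of the 201 of higher regions (1.49%) and 295 of all 21263 (1.39%). The 6 genes were Actc1, Actg1, Myl9, Fhl2, Fbxl22 and Chmp2a. Actc1 and Actg1 encode actins, Fbxl22 an F-box protein of cardiac muscle and Chmp2a a part of the membrane-cutting ESCRT complex. The match began 47 bp before the start in Actc1 (ccaaataagg), 90 bp in Actg1 (ccatatatgg), 96 bp in Fhl2, 161 bp in Myl9, 222 bp in Fbxl22 (ccttttaagg) and 244 bp in Chmp2a (cctaatttgg). It lay inside a lower bin at 4 of the 6 genes, and outside at Actg1 and Fhl2. The MEF2 box of any form was present in 6.67%, 1.99% and 2.61% of lower, higher and all promoters, and GAANNTTC in 10%, 5.97% and 6.17%. A MEF2 box and a CArG box can share bases, since both have a core of A and T.

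**Figure D3:**
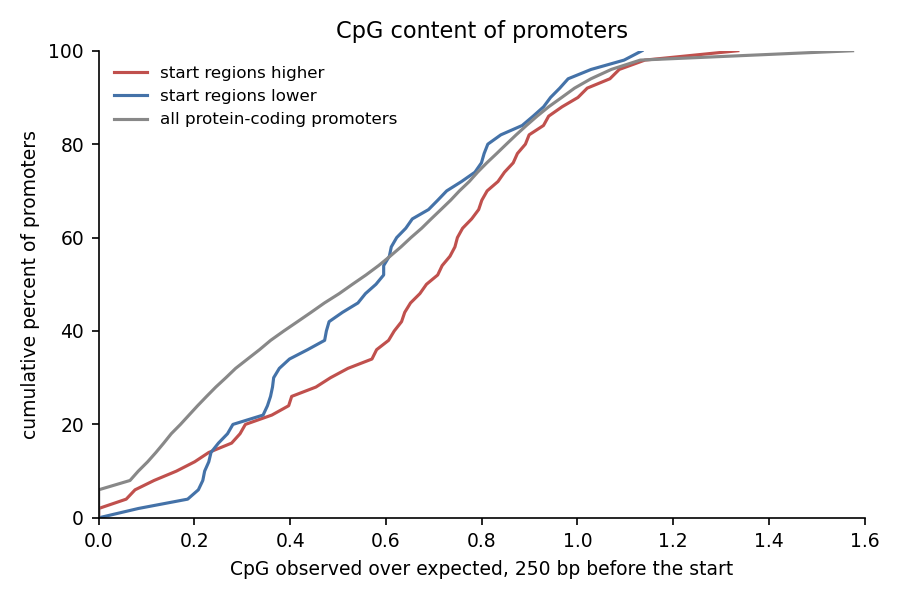
Cumulative percent of promoters (vertical axis) at or below each observed over expected CpG ratio in the 250 bp before the start (horizontal axis), for genes with a higher start region (n = 201), a lower start region (n = 60) and all protein-coding promoters (n = 21263). The curve of the higher regions lies to the right of that of the lower ones in its upper range, with medians of 0.68 and 0.58.

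The largest gain at a gene end was at Pdk4, whose product is the kinase that switches off pyruvate dehydrogenase and so spares glucose. The bin, chr6:5484001-5484500, was inside the gene, 650 bp from its other end, and stood for a region of 16000 bp. It had 31.1, 9.41, 20.0 and 17.6 scaled reads in the controls and 384, 239, 231 and 117 in the R1A-deleted animals. Every R1A-deleted animal lay above every control, and R1A-deleted animal 4 was the lowest of its group. The fold was 3.48 ± 0.27 (SE, n = 4 per group; edgeR adjusted p = 1.72e-09) on the authors' scale and 2.88 with TMM, and 2.56 in the authors' deposited table. These edgeR p-values, here and below, come from the libraries on which the authors had chosen the regions, so they are not separate evidence. They set the difference between groups against the spread between animals, and were adjusted over called regions only.

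Txnip, which encodes an arrestin-like protein that holds back glucose uptake, came next. Its bin at chr3:96562751-96563250, 894 bp beyond the other end of the gene, had 53.8, 18.8, 41.0 and 30.2 scaled reads in the controls and 288, 159, 299.8 and 123 in the R1A-deleted animals. The groups did not overlap, and animals 1 and 3 were the highest in each of them. The fold was 2.47 ± 0.25 (SE, n = 4 per group; edgeR adjusted p = 1.78e-08).

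Ankrd9 encodes an ankyrin repeat protein. Its bin at chr12:110975751-110976250, 170 bp from the other end, had 58.6, 49.4, 48.5 and 59.1 scaled reads in the controls and 178, 141, 153 and 148 in the R1A-deleted animals, which were tightly grouped and separate. The fold was 1.52 ± 0.17 (SE). Slc27a1, a fatty acid transport protein, shared its region with Nxnl1, a thioredoxin-like gene of the retina whose start is also near. The bin at chr8:71567501-71568000 had 32.7, 28.2, 40.1 and 45.3 scaled reads in the controls and 122, 78.5, 115 and 125 in the R1A-deleted animals. The groups did not overlap, and the fold was 1.56 ± 0.20 (SE).

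Hrct1 and Psat1 completed the 6 largest gains among regions with at least the median count. At Hrct1 (chr4:43728501-43729000) the controls had 67.6, 54.1, 52.7 and 52.9 scaled reads and the R1A-deleted animals 177, 156, 148 and 173. At Psat1 (chr19:15904751-15905250), which encodes an enzyme of serine synthesis, the controls had 29.0, 61.2, 52.2 and 41.5 and the R1A-deleted animals 136, 95.4, 213 and 102. Both sets were separate, with folds of 1.505 ± 0.17 and 1.65 ± 0.24 (SE). In the authors' deposited table the next by size were Ucp2 (1.20), a carrier of the inner mitochondrial membrane, Preb (1.17), an activator of export from the endoplasmic reticulum, Igsf6 (1.12), and Pnpla2 (1.12), the lipase that begins the breakdown of stored fat. All 10 were called higher with TMM as well.

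The largest loss was at Bmp10, a growth factor gene that is active in atrial myocytes. The bin at chr6:87434751-87435250 lay 239 bp beyond the other end, in a region of 15000 bp. It had 121, 96.5, 129 and 101 scaled reads in the controls and 22.8, 14.9, 22.7 and 31.7 in the R1A-deleted animals, far below the lowest control. The fold was -2.35 ± 0.22 (SE, n = 4 per group; edgeR adjusted p = 7.16e-09), and -2.94 with TMM.

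Ccn2, a matrix-associated protein induced by TGF-beta and by YAP and TEAD, had a bin that covered an end of the gene (chr10:24595251-24595750). The controls had 385, 515, 396 and 354 scaled reads and the R1A-deleted animals 165, 194, 175 and 165. Control animal 2 was the highest, and the groups stayed apart by a wide margin. The fold was -1.22 ± 0.13 (SE, n = 4 per group; edgeR adjusted p = 7.03e-08).

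Pln encodes phospholamban, the inhibitor of the calcium pump SERCA. Its bin at chr10:53346251-53346750, 252 bp from the other end, had 212, 226, 210.3 and 272 scaled reads in the controls and 86.7, 79.5, 113 and 117 in the R1A-deleted animals. All R1A-deleted values were below the lowest control, and the fold was -1.22 ± 0.16 (SE). Ankrd1 encodes a repeat protein of the sarcomere and nucleus that is induced by stretch. Its bin at chr19:36119001-36119500, 344 bp from the start, had 209, 174, 175 and 131 scaled reads in the controls and 96.4, 87.5, 77.6 and 85.0 in the R1A-deleted animals. The groups did not overlap, with a fold of -1.001 ± 0.16 (SE).

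A pair of HSP70 genes stood among the 6 largest losses with at least the median count. The Hspa1b bin at chr17:34958001-34958500, inside the gene and 738 bp from its start, outside the promoter printed above, had 114, 104, 131 and 81.8 scaled reads in the controls. The R1A-deleted animals had 56.9, 51.7, 44.5 and 46.7. Hspa8, the constitutive HSP70, had 87.6, 61.2, 69.5 and 69.2 in the controls and 34.2, 49.7, 22.7 and 33.3 in the R1A-deleted animals at chr9:40804501-40805000. The groups were apart at both genes, with folds of -1.12 ± 0.19 and -1.06 ± 0.23 (SE). Usp47, a deubiquitinase, Tnnc1, the calcium sensor of troponin, 1700065D16Rik and Hspa1a followed, with folds of -0.90, -0.87, -0.87 and -0.86 in the authors' deposited table. Hspa1a and Hspa1b are nearly identical copies, so reads could have been split between them and their values are uncertain.

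**Figure D4:**
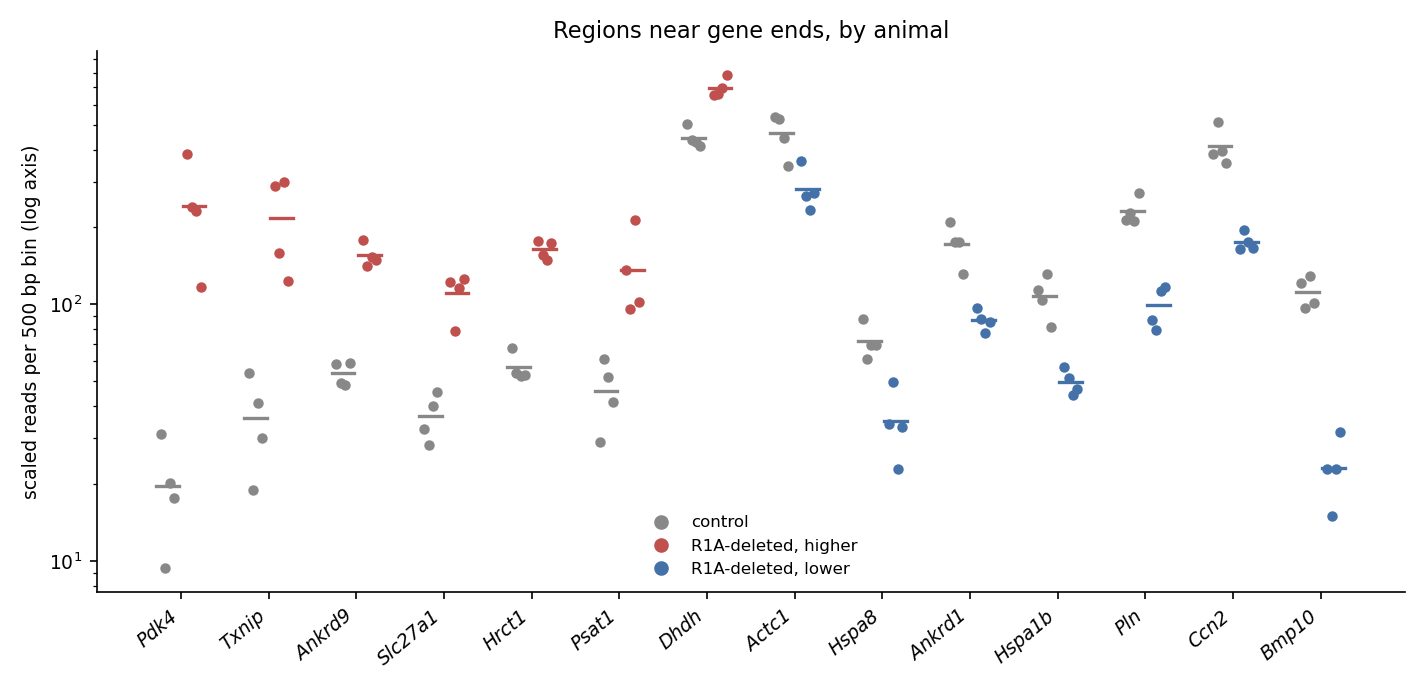
Scaled reads per 500 bp bin (log axis) of each animal for the 6 largest gains and losses among regions with at least the median count and for a highly open region of each direction, Dhdh and Actc1. Points are animals (4 per group) and bars are means; at Pdk4 the controls run from 9.41 to 31.1 and the R1A-deleted animals from 117 to 384, while at Actc1 the groups overlap, and the fold of Dhdh was 0.04 with TMM.

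Among the most open regions the gains had small folds. Dhdh, which encodes a dehydrogenase, had a control signal of 378. Its bin at chr7:45473251-45473750, 295 bp from an end of the gene, had 506, 435, 431 and 413 scaled reads in the controls and 653, 657, 694 and 780.0 in the R1A-deleted animals. The groups were apart, with a fold of 0.63 ± 0.11 (SE; edgeR adjusted p = 2.83e-05) on the authors' scale, but 0.04 (adjusted p = 0.746) with TMM. Osbp, Mettl14, an RNA methyltransferase subunit, and Rhoa, a GTPase of the actin cytoskeleton, were also among the gains of highest signal. Each had a fold of 0.43 in the authors' deposited table. With TMM the fold turned to -0.18 for Osbp, -0.15 for Mettl14 and -0.17 for Rhoa, and at Rhoa the groups overlapped.

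Actc1 had the highest signal among the losses. Its start region at chr2:114052751-114053250 had 538, 527, 445 and 345 scaled reads in the controls and 360.0, 264, 233 and 272 in the R1A-deleted animals. R1A-deleted animal 1 lay above control 4, so the groups overlapped, and the fold was -0.71 ± 0.14 (SE; edgeR adjusted p = 0.000119). Ccn2 was next by signal, and the natriuretic peptide genes Nppa and Nppb were also among the highest, with folds of -0.71 and -0.64 in the authors' deposited table. None of these losses turned with TMM, which lowers the folds and so could not turn them.

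Of the gene lists, fatty acid and mitochondrial metabolism had the most regions at gene ends. Of the 62 list genes, 27 had a region within 1 kb of an end, with 27 regions higher, 2 of which turned with TMM, and 7 lower. Their median fold was 0.75, against 0.70 over all listed regions. Of all listed regions assigned to these genes 36.2% were at gene ends, against 9.72% of all listed regions. Among the gains were genes of fatty acid import and oxidation: Cpt1a (0.80), Cpt1b (0.50), Cpt2 (0.70), Slc25a20 (0.70), which together move fatty acids into mitochondria, Hadh (0.93), Ech1 (1.02 and 0.66) and Decr1 (0.63) in the authors' deposited table. Angptl4 (1.21), an inhibitor of lipoprotein lipase, Lipe (1.02), a lipase, and Acot2 (1.13 and 0.61), a thioesterase, were higher in the same table. The bin beside the start of Ech1, a mitochondrial isomerase, went from 97.6 ± 11.6 to 223 ± 37.4 scaled reads (SD, n = 4), and that of Cpt1b, shared with Chkb, from 206 ± 17.1 to 297 ± 39.7. Acot1 and Acot2 are close copies, so their values are uncertain.

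The 7 losses of this list were at Ogdh (-0.96 and -0.58 in the authors' deposited table), a dehydrogenase of the citric acid cycle, Mb (-0.62), which encodes myoglobin, Oxct1 (-0.71), which breaks down ketone bodies, Atp5a1 (-0.63), a part of ATP synthase, Ckm (-0.54), muscle creatine kinase, and Fabp4 (-0.77), a fatty acid binding protein. Uqcrc1, of the respiratory chain, was among the gains (0.64 in the same table). With TMM edgeR called 10 of the 27 gains, against 27.8% of all listed gains. Those of the 27 that turned were at Cpt1b (-0.06) and Plin4 (-0.05). The list had been chosen with earlier results of these data known, and its regions away from gene ends were split 51 higher and 9 lower. In the list of glucose and insulin handling 3 regions were higher, of which TMM called 1 and turned 1, and 3 lower, with losses at Ppp1r3c, which promotes glycogen storage, and Ldha, lactate dehydrogenase (-0.91 in the authors' deposited table).

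Of all regions at gene ends 73.9% were higher on the authors' scale, and of all listed regions 66.7%. At glucocorticoid target genes every region at an end was higher on that scale, and 2 turned with TMM. There were 12, at 10 of the 39 list genes, with a median fold of 0.95, and the regions elsewhere were 61 higher and 2 lower. Zbtb16 (1.33), a zinc finger repressor, Mt2 (1.21) and Mt1 (0.57), which encode metal-binding metallothioneins, Cebpd (1.08), a leucine zipper factor, and Fkbp5 (0.68), a chaperone of the receptor, were among them in the authors' deposited table. The Fkbp5 bin covered an annotated start and went from 128 ± 12.9 to 212 ± 8.92 scaled reads, and the Mt2 bin went from 23.5 ± 4.36 to 69.7 ± 9.24 (SD, n = 4). Pdk4, Angptl4 and Plin4 stand in this list and the metabolic list. With TMM 6 of the 12 were called higher, against 27.8% of all listed gains. Those of the 12 that turned were at Plin4 (-0.05) and Arrdc2 (-0.08).

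The circadian clock list had 3 regions at gene ends, all higher, at 3 of its 28 genes, and its regions elsewhere were 19 higher and 3 lower. The Ciart bin at chr3:95882251-95882750, over the promoter whose E-boxes are printed above, rose from a control mean of 129 ± 17.5 scaled reads to 283 ± 38.5 (SD, n = 4 each). The fold was 1.13 ± 0.14 (SE; edgeR adjusted p = 7.32e-07), and the region was called with TMM (0.53). Per2 and Per3, repressors of the clock, had folds of 0.88 and 0.81 in the authors' deposited table and were not called with TMM (edgeR adjusted p = 0.068 and 0.13). The time of day of tissue collection is not stated in the labels.

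Most of the listed regions at ends of sarcomere genes were lower. Of the 57 list genes 16 had a region, with 6 regions higher, 1 of which turned with TMM, and 12 lower, and a median fold of -0.65. The regions of this list away from gene ends had a similar split, 36 higher and 63 lower. In the authors' deposited table the losses were at the actin gene Actc1 (-0.66 and -0.77), the light chain genes Myl2 (-0.97) and Myl4 (-0.76), Tnnc1 (-0.87), Actn2 (-0.76), the crosslinker of the Z-disc, Fhl2 (-0.64), Xirp2, Trim55, Pdlim5, Synpo2 and Ankrd1. The Actn2 bin went from 55.0 ± 11.02 to 29.6 ± 3.77 and the Myl4 bin from 156 ± 53.1 to 89.6 ± 9.09 scaled reads (SD, n = 4). Among the gains were Lmod1 (0.95), Tcap (0.92 and 0.55), the titin cap, Trim54 (0.58) and Csrp3 (0.56). With TMM edgeR called 1 of the 6 gains, against 27.8% of all listed gains. The gain that turned was the smaller one of Tcap (-0.04).

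Regions at ends of calcium handling and atrial genes were nearly all lower. Calcium handling had 2.59% of its listed regions there, 3 in all, at Pln, Atp2a2 (-0.65 in the authors' deposited table), the calcium pump, and Jph2 (-0.54), whose product holds the reticulum against the cell membrane. The remaining 113 lay away from gene ends, 31 higher and 82 lower. The atrial list had 4 lower regions, at Nppa, Nppb, Myl4 and Bmp10, and 1 higher, at Stard10 (0.77), a lipid transfer protein, not called with TMM. Away from gene ends the atrial list had a similar split, 14 higher and 60 lower. The Nppa bin, near both ends of this short gene, had a fold of -0.75 ± 0.13 and the Nppb bin one of -0.70 ± 0.14 (SE, edgeR). Cardiac transcription factors had 1 region at a gene end (1.33% of theirs), at Foxo1 (0.76), a forkhead factor restrained by insulin, not called with TMM.

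The losses among immediate early and heat shock genes were at chaperones, though not every chaperone was lower. The list had 14 regions at ends of 9 of its 47 genes, 5 higher and 9 lower, whereas its regions elsewhere were 23 higher and 7 lower. In the authors' deposited table all 9 losses were at chaperones: Hsp90ab1 (-0.73 and -0.70), Hspa1b (-1.02 and -0.77), Hspa1a (-0.86), Hsph1 (-0.99), Dnajb1 (-0.92) and Hspa8 (-0.92 and -0.66). Both Hsp90ab1 regions were also within 1 kb of the other end of Slc35b2, a solute carrier gene. At the region of -0.73 Slc35b2 was the nearer gene. The gains were at Gadd45b, a stress sensor, with 3 regions, Klf2 (0.78), and Hspb7 (0.87), a chaperone of the small heat shock protein class in heart muscle. Outside the list, the chaperone gene Hspa9 (0.49) was higher in the same table. The Hspb7 bin went from 195 ± 30.3 to 394 ± 43.4 scaled reads and the Hsph1 bin from 37.5 ± 13.5 to 15.8 ± 3.41 (SD, n = 4). With TMM edgeR called all 9 losses and 1 of the 5 gains, that of Hspb7 (adjusted p = 0.0135), and none of the 14 turned. Over all listed regions it called every loss and 27.8% of the gains.

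Smaller groups were mixed. Growth factor, TGF-beta, BMP and Wnt genes had 3 losses, at Ccn2, Bmp10 and Vegfb (-0.82 in the authors' deposited table), and 1 gain, which turned with TMM. Junction and cytoskeletal genes had 6 gains and 1 loss. The gains were at Des (0.62), the intermediate filament of muscle, Dsc2 (0.78), a desmosomal cadherin, Sgca, Svil and Ahnak, with 1 Ahnak region turning with TMM and 0 of the 6 called, and the loss was at Gja1 (-0.64), which encodes connexin 43. Among ion channel genes Cntn2 (0.96), a marker of the conduction system, and Kcnh2 (0.89) were higher, neither called with TMM, and Gja1 and Kcne1 (-0.63) were lower in the same table. Genes of protein turnover had 3 gains, at Gabarapl1 (0.94), Eif4ebp1 (0.60) and Ulk1 (0.53), the first called and the last turning with TMM, and 1 loss.

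**Figure D5:**
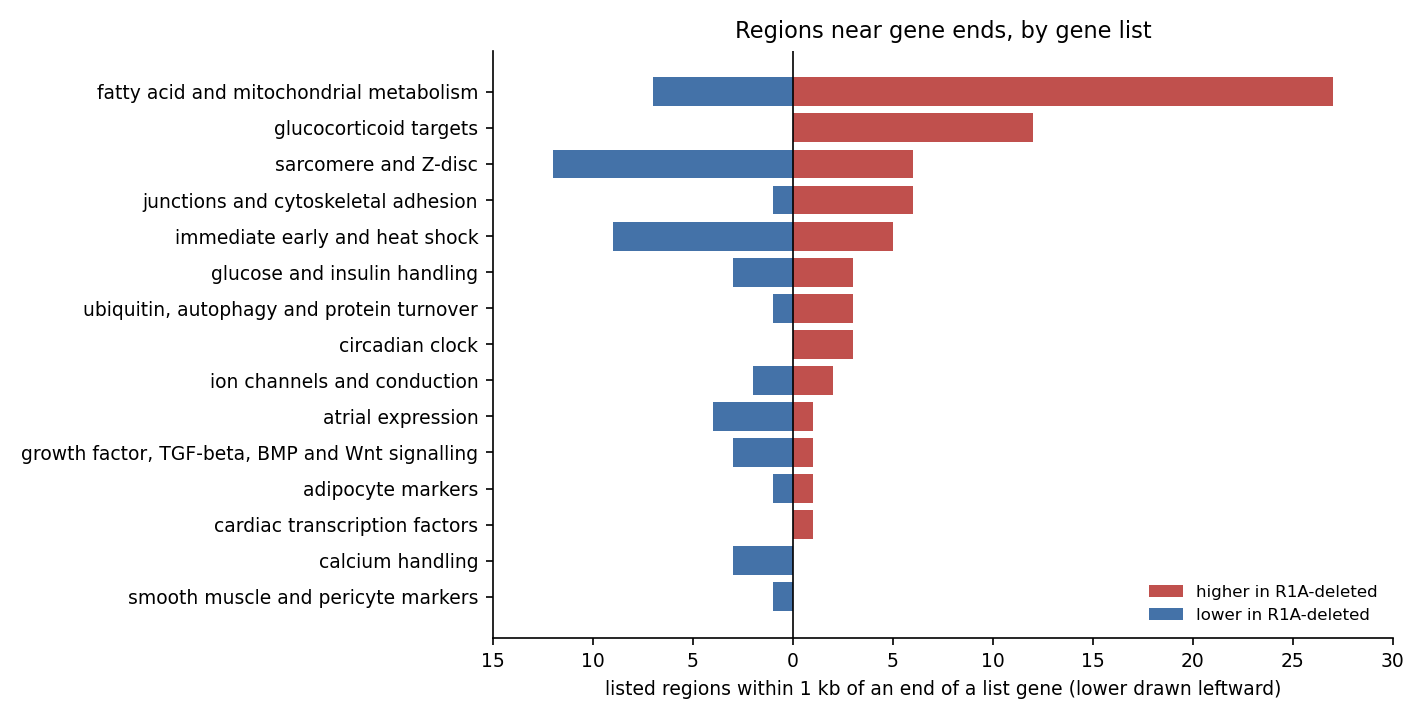
Number of listed regions within 1 kb of an end of a gene of each list, with higher regions drawn to the right and lower regions to the left. Fatty acid and mitochondrial metabolism had 27 higher and 7 lower, glucocorticoid targets 12 higher, sarcomere and Z-disc 6 higher and 12 lower; with TMM 2, 2 and 1 of the higher regions in these 3 lists had a fold below 0.

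Of the 67 marker genes of other cell types 3 (4.48%) had a region at an end, against 514 of all 21900 protein-coding genes (2.35%). Fibroblast, endothelial and endocardial, immune, and neural, glial and epicardial markers had 0 regions there. Smooth muscle and pericyte markers had 1, at Acta2, which went from 48.0 ± 5.15 to 17.6 ± 7.12 scaled reads (SD, n = 4). Adipocyte markers had 2, Cidea higher (0.71 in the authors' deposited table, not called with TMM) and Fabp4 lower (-0.77). Of the 12 cardiomyocyte markers Actc1, Actn2, Nppa, Myl4 and Pln had regions at gene ends, all of them lower. The table lists changed regions only, so the share of cardiomyocyte nuclei in each sample could not be read from it, and fewer nuclei of a type cannot be told apart from less open chromatin per nucleus.

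Genes with more than 1 region did not mix directions. Of the 514 genes 385 had only higher and 129 only lower regions, and 0 had both. Among 45 genes with more than 1 region, all were higher at 32 genes and all lower at 13. Neighbouring bins share fragments and cells, so such regions are not independent. Myl9 had 4, all lower, with folds of -0.68, -0.68, -0.77 and -1.08 in the authors' deposited table. At its regions of -0.77 and -1.08, and at its start bin, the groups overlapped. The Myl9 start bin, on the CArG box printed above, went from 185 ± 44.0 to 112 ± 9.91 scaled reads (SD, n = 4), and there control animal 4 fell among the R1A-deleted animals. Adamtsl5, which encodes a secreted protein, and Gadd45b had 3 each, all higher, and at 1 region of each the groups overlapped. With TMM the 6 folds of Adamtsl5 and Gadd45b stayed above 0, and edgeR called none of them.

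Few genes of each gene family had a region at an end, and the share over all protein-coding genes was 2.35%. With such small counts the family shares are descriptions, and their distance from 2.35% was not tested. Cytosolic ribosomal protein genes, 97 in the reference, had 0 regions at their ends, as did the 91 histone genes. Zinc finger genes had 5 regions at 5 of 481 genes (1.04%), 4 of them higher and 1 called so with TMM, among them Zbtb16 and Zfp516 (0.72 in the authors' deposited table). Solute carrier genes (3.60% with a region) had 11 higher regions, 3 of them called with TMM, and 4 lower. Genes of Mediator, RNA polymerase and splicing (4.46%) had 5, all higher and 1 called with TMM, and Polr3gl, a subunit of RNA polymerase III, singled out after its values were seen, was the largest of these (1.10 in the authors' deposited table), from 165 ± 13.7 to 377 ± 47.2 scaled reads (SD, n = 4). KLF, FOX and SOX factors (4.88%) had 5, all higher, at Klf2, Klf10, Klf12 and Foxo1, with Klf12 called with TMM and 1 Klf10 region turning to -0.04. Ubiquitin ligases and deubiquitinases (2.11%) had 3 higher, 0 of them called with TMM, and 5 lower.

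Width and position in the gene gave further differences. Of the 518 regions 370 had their bin in or overlapping a gene body, and whether in an exon or an intron could not be read without an exon annotation. The 148 outside gene bodies had a lower control signal, 40.4 against 53.1, and 115 of them (77.7%) were higher. Regions of 2000 bp or more numbered 19, with a median size of change of 1.12, and 9 of their 12 gains were called with TMM. The 219 regions of a single bin width had a median size of 0.68, and 3 of their 154 gains were called with TMM. Of the 4 regions on chromosome X 2 were higher and 2 lower. At the edge of the rule, the 63 regions 801 to 1000 bp from an end had a median control signal of 39.6 and 43 gains, and the 60 regions 1001 to 1200 bp away had 37.4 and 41.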

How the data were processed

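ATAC-seq reads of sorted cardiomyocyte nuclei had been sequenced as pairs of 150 bp, per the labels' protocols, and BWA, DESeq2, bedtools and the build mm10 are named, with no version or role, in the submitters' processing notes. The deposited table holds called regions only, each with a 500 bp bin, per the file headers. The authors' deposited counts are raw, with 0.1 in 17 cells, handled as estimated counts and rounded to 0. The deposited group signal is the geometric mean of raw counts, with a largest relative difference of 4.8e-10 from a recomputation. The sign of the authors' deposited log2 fold change was turned to R1A-deleted over control. The deposited adjusted p-values reach 0.04999. The sources used here do not give peak calling, duplicate removal, read shifting or the design of the authors' test. Unchanged regions are not analysed here.

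Libraries of controls 1 and 3 were summed per animal. The authors' scale came from regressing their log2 fold change on the log2 ratio of group signals over 1432 regions with both at or above 50 (slope 0.874, shift 0.142). Within groups, factors were median ratios. Tests were edgeR 4.0.16 (glmQLFit, glmQLFTest; R 4.3.3) over all 5327 regions with Benjamini-Hochberg adjustment at 0.05; filterByExpr removed 0 regions. The edgeR step was tested on simulated data. Labels do not say whether litters were shared, so p-values set the difference between groups against the spread between these animals only. Alternatives were TMM, DESeq2 1.42.0, other distances and left-out animals.

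Gene bodies were those of 21900 protein-coding genes, and strand was known for 17492 of them from the promoter table. Of 297 pairs of a region and a gene start, 25 had a tabled promoter more than 1 kb away and were left out of the promoter counts. Regions away from gene ends were assigned to the nearest gene.

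The members, gene lists and tests were chosen with earlier results of these data known. Genes named by rule were the 10 largest changes per direction with a mean count at or above the median (61.5), the 5 highest control signals per direction, the smallest adjusted p per list and direction, and genes with 3 or more regions; some of these are not reported here. Other list members, Polr3gl, Hspa9 and the genes with a CArG box were chosen after their values were seen.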

Additional observations from a re-analysis of the deposited data

Results flagged for a closer look

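Among 104 groups of 4 animals at the 52 regions named by rule, 6 had an animal set apart from the other animals of its group by Dixon's criterion, which flags about 1 in 20 groups by chance. All values are scaled reads per bin. Among gains, control animal 1 had 67.6 at Hrct1, where the other controls had 52.7 to 54.1. Control animal 1 had 24.8 at Cntn2, where the others had 33.6 to 35.3. Control animal 3 had 42.0 at Cidea, where the others had 52.9 to 54.1. R1A-deleted animal 4 had 90.0 at Stard10, where the others of its group had 64.6 to 68.3. Among losses, R1A-deleted animal 1 had 175 at Nppb, where the others had 158 to 160.0. Control animal 3 had 148 at Hspa1a, where the others had 113 to 117. At each of these regions the R1A-deleted animals lay on the same side of all controls.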

How the results depend on the processing

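The 383 gains and 135 losses called by edgeR on the authors' scale stayed at 383 and 135 with no filter, with 10 separate libraries, with 1 library per control animal and with DESeq2 on the same scale. Leaving out each animal in turn gave 383 to 383 and 135 to 135. With the animal number as a replicate block the counts were also 383 and 135. Deviations of same-numbered animals correlated at 0.26, 0.04, -0.03 and -0.00, against -0.15 to 0.08 for pairs of unlike number. The pair numbered 1 thus stood apart, and whether the numbers pair animals is not settled. These fits cannot lose many calls, since the scale comes from the authors' calls. Higher calls fell to 65 with TMM and 58 with DESeq2's own size factors, while losses stayed at 135. TMM lowers the folds and so could not turn a loss. With TMM, and likewise with DESeq2's factors, Osbp turned to -0.18, Rhoa to -0.17 and Mettl14 to -0.15. Of the 52 named regions, 36 kept direction and call with TMM and 13 kept direction only. The number of regions was 225 at a deposited adjusted p under 0.01 (78.7% higher) and 279 near a start only. The median control signal was 53.2 within 500 bp, 46.6 within 2000 bp, 54.9 near a start only, and 77.9 as a mean raw count per animal. The median size of change was 0.86 at an adjusted p under 0.01, 0.87 from edgeR, 0.40 with TMM, and 0.90, 0.80, 0.77, 0.69 and 0.62 by rising quintile of control signal. Limits are that only called regions are listed, that depth per library is unknown, and that the split between gains and losses moves with the scale.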

Other observations

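Regions shared by a pair of genes numbered 45, of which 36 (80.0%) were higher and 9 lower, close to the 73.4% higher among regions at 1 gene. TMM called 5 of the 36 gains (13.9%), against 17.3% of the gains at 1 gene, and the median control signal was 56.7 against 48.3. MAP kinase and dual-specificity phosphatase genes had 4 regions at their ends, all higher on both scales but called by edgeR with TMM at 0 of them: Map3k8 (0.62), Map3k9 (0.63), Map3k10 (0.74) and Mapk3 (0.54) in the authors' deposited table. At 2 of these 4 regions the groups did not overlap, against 90.6% of all listed gains. Map3k8, Map3k9 and Map3k10 encode kinases at the head of MAP kinase cascades and Mapk3 encodes ERK1. Predicted and unnamed genes had 12 higher regions, of which TMM called 1 and turned 1, and 6 lower ones at the ends of 17 of 1736 genes.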
